A study of Mus musculus with 6 samples.

Results

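The cell cycle genes of dividing neutrophil precursors were followed in RNA of mouse bone marrow neutrophils. The 50 genes were chosen by symbol, from a list of S phase, G2/M and cell cycle control genes, and each was found among the 52636 genes of the deposited table. Expression was given as TPM, in which the length of each gene is taken out and every library adds up to the same total. Of the 50 genes, 48 reached a mean of 1 TPM over all libraries and were tested together with the other genes that did (9775 in all). Cdc6 and Myc stayed below it and are described without a test.
The study compared neutrophils of wild-type (WT) mice, 3 libraries, with those of mice labelled LRP5f/f/Lyz2Cre+ (LRP5-null), also 3 libraries. All mice were aged 10 weeks and of the C57BL/6N strain. The LRP5-null mice carried floxed alleles of Lrp5, a Wnt coreceptor gene, and Cre expressed from Lyz2, a gene of myeloid cells, so that monocytes and macrophages are targeted along with neutrophils. No allele beyond WT is given for the controls. By the labels the cells came from tibia and femur marrow over a Percoll gradient, and an mRNA kit was used. The methods instead describe, for sequencing, cells sorted as positive for CD11b and Ly6G and a stranded total RNA kit. The labels do not say that each library is a separate animal, so p-values measure the spread between libraries, which may be technical.
Between 249841492 and 340580330 reads per library are listed in the deposited read summary, which gives them as paired-end, while the methods name single-end reads, so what a listed read counts is uncertain. Lrp5 itself was 1.12, 1.31 and 1.42 TPM in the WT libraries and 1.68, 1.77 and 2.07 TPM in those labelled LRP5-null (limma, log2 fold change 0.31, adjusted p = 0.136). The targeted transcript was thus not lower under that label. A transcript that lost only floxed exons would still count towards the TPM of the whole gene, and the deleted exons are not given in the sources used here, so these values do not check the labels, on which all directions depend. The ribosomal share of reads was 2.69% to 2.98% in LRP5-null libraries and 3.3% in WT replicate 3, but 1.2% and 1.3% in the other WT libraries. WT replicate 3 therefore stood apart from the other WT libraries, and values with and without it are given where a result rests on it. Intronic reads made up 7.78% to 9.0% in WT and 10.6% to 11.2% in LRP5-null libraries. These shares did not overlap, WT replicate 3 included, so they go with the group label. Their part in the values was not tested.
Neutrophil precursors divide in the bone marrow up to the myelocyte stage, and later forms leave the cell cycle as their nuclei become segmented. Cyclin D and cyclin E kinases release E2F factors from RB1 on the way into S phase, in which MCM helicases unwind DNA and enzymes of nucleotide synthesis supply its building blocks. Cyclin B with CDK1 then drives mitosis, Aurora and Polo kinases build the spindle, and the anaphase-promoting complex ends it by destroying cyclins. CDK inhibitors hold the cycle back and are known to accumulate as myeloid cells mature.

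None of the 48 genes passed an adjusted p under 0.05 in limma's test on log2(TPM + 1), where 0.532% of all genes tested did (52 genes). The smallest adjusted p was 0.101, that of Tk1. The genes nevertheless leaned one way, which is a description only, as the lists were chosen with earlier results of these data known. A positive log2 fold change, LRP5-null over WT, was found for 36 of the 48 (75%), against 58.8% of all genes tested. The median was 0.15 against 0.04 for all genes, and single genes ran from −0.31 (Cdkn1b) to 0.37 (Tk1), with standard errors of 0.068 to 0.173. An unadjusted limma p under 0.05 was reached by 14 genes in the higher direction (29.2%, against 14.4% of all genes) and by 0 in the lower one (against 9.12%). Every LRP5-null library lay above every WT library in 18 genes (37.5%, against 17.4% of all genes), and below in 0 (against 12.3%). Of single genes, the exact permutation test of 3 libraries against 3 cannot give less than p = 0.1. In bulk RNA, a different share of dividing cells and a different amount of RNA per cell cannot be told apart.

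**Figure D1:**
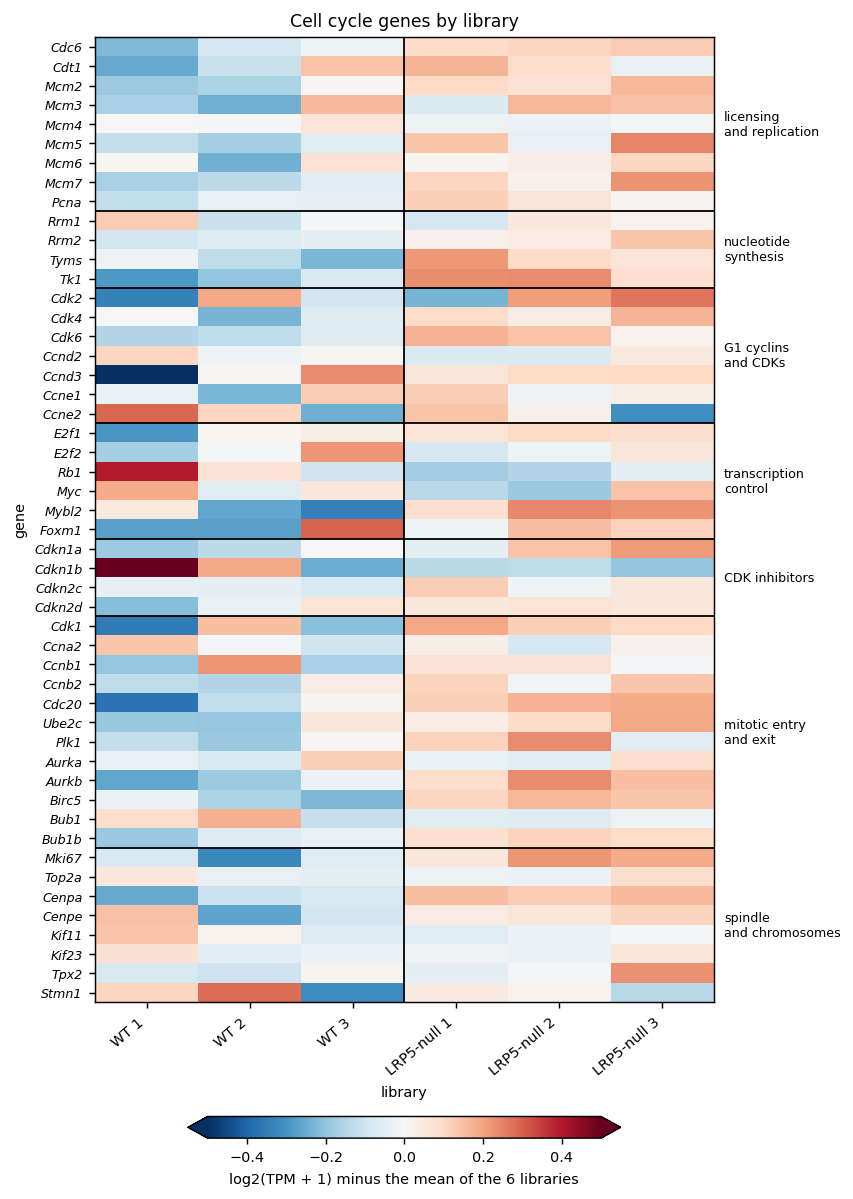
Level of each of the 50 genes (rows, by role) in each library (columns), as log2(TPM + 1) minus the gene's mean over the 6 libraries, with values beyond 0.5 in either direction drawn at the ends of the colour scale. WT replicate 1 is the lowest WT library in 20 of the 48 tested genes and WT replicate 3 in 12, and the libraries labelled LRP5-null are above all WT libraries in 18.

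WT replicate 3 was the WT library nearest to the LRP5-null mean in 28 of 48 genes, and replicates 1 and 2 in 10 each. Even so, all LRP5-null libraries were above WT replicate 3 in 27 genes (56.2%, against 31.4% of all genes) and below it in 6 (12.5%, against 33.8%). When WT replicate 3 was left out, limma called 7 of the genes. The 6 higher ones were Tk1, Foxm1, Cdc20, Ube2c, Aurkb and Cenpa (12.5%, against 12.1% of all genes), and the lower one was Cdkn1b (2.08%, against 7.57%). The share of higher calls was thus close to that of the whole table.

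**Figure D2:**
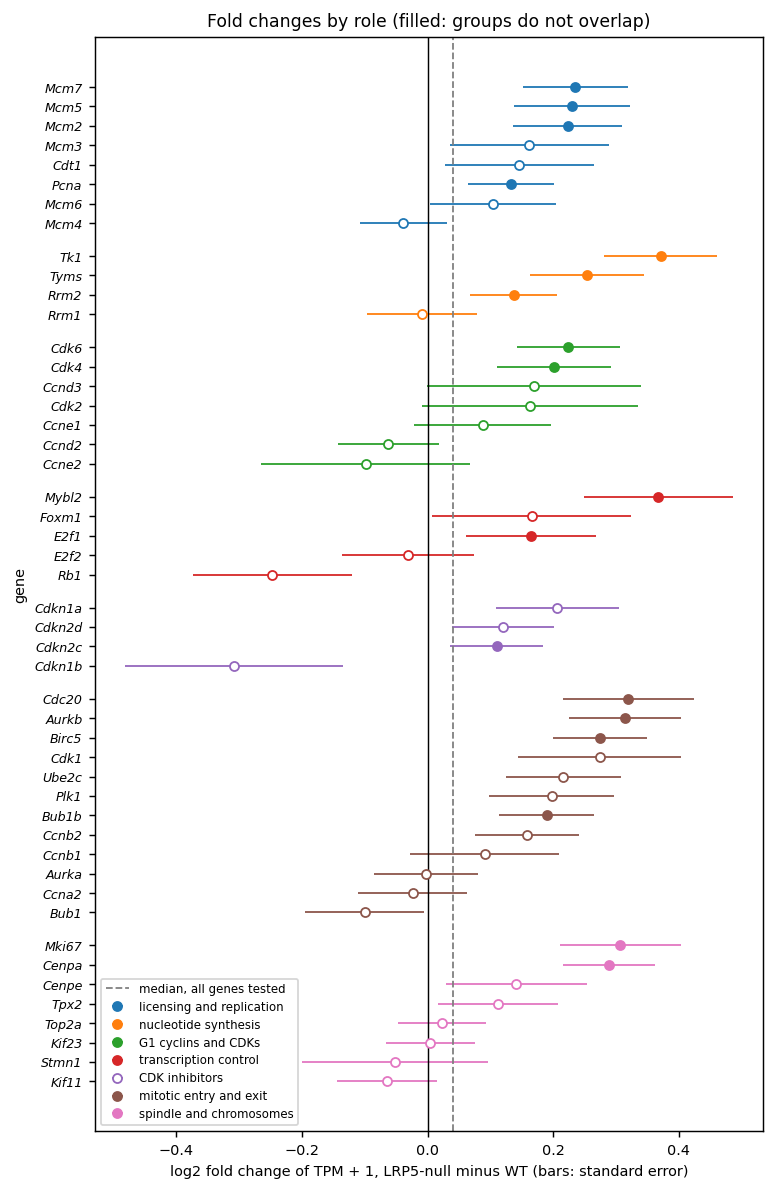
Log2 fold change of TPM + 1, LRP5-null minus WT, with its limma standard error, for the 48 genes tested, grouped by role, with filled points for the 18 genes whose groups do not overlap. Most points lie to the right of the dashed line, the median of all genes tested (0.04), and the lowest point is Cdkn1b at −0.31.

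Levels themselves differed widely between the genes, as TPM allows a comparison per length. The most abundant were Cdkn2d, with a mean of 175 TPM over the 6 libraries, Ccnd3 (89.2 TPM), E2f2 (74.4 TPM) and Cdkn1b (71.9 TPM), all genes of the entry into or exit from the cycle. Those of mitosis followed, with Top2a at 50.2 TPM, Ube2c at 46.1 TPM and Kif23 at 40.2 TPM. The MCM helicase genes were low, from 1.92 TPM (Mcm2) to 8.37 TPM (Mcm4), as was Ccne1 at 1.58 TPM. Cdkn2d exceeded 94.6% of all genes tested.

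The counts of each role group, all small, stand beside 14.4% of all genes with an unadjusted limma p under 0.05 and 17.4% without overlap in the higher direction. Among the genes of licensing and replication, 7 of 8 had a positive log2 fold change, 3 such a p (37.5%) and 4 groups without overlap (50%), with a median of 0.15. Mcm7, a subunit of the replicative helicase on chromosome 5 (chr5:138605811-138613650 of NCBIM37, minus strand), was 6.71, 6.88 and 7.29 TPM in WT and 8.30, 7.77 and 9.08 TPM in LRP5-null libraries. The lowest LRP5-null library exceeded the highest WT library, with a log2 fold change of 0.24 (SE 0.083, limma adjusted p = 0.162).
Mcm2, another subunit of that helicase (chr6:88833469-88848774 of NCBIM37, minus strand), was 1.57, 1.61 and 1.92 TPM in WT and 2.12, 2.06 and 2.26 TPM in LRP5-null libraries. WT replicate 3 was again the WT library nearest to the others. Its log2 fold change was 0.22 (SE 0.086, limma adjusted p = 0.184).
Pcna, the sliding clamp of the DNA polymerases (chr2:132074898-132079050 of NCBIM37, minus strand), was 34.5, 36.7 and 36.6 TPM in WT and 41.0, 39.4 and 38.0 TPM in LRP5-null libraries. These groups did not overlap either, with means 9.88% apart and a log2 fold change of 0.13 (SE 0.068, limma adjusted p = 0.282). Mcm5 also had groups without overlap (6.13 to 6.67 against 6.80 to 8.45 TPM). Cdc6, which loads the helicase, was 0.416, 0.557 and 0.623 TPM in WT and 0.766, 0.777 and 0.800 TPM in LRP5-null libraries, below the level tested. Cdt1, its partner in loading, and Mcm3 and Mcm6 had log2 fold changes of 0.15, 0.16 and 0.10 with overlapping groups. These rested on WT replicates 1 and 2, being 0.25, 0.28 and 0.17 without WT replicate 3 and −0.07, −0.08 and −0.02 against it alone. Mcm4 was the member of this group with a negative value (−0.04), which was 0.0051 with GC and length trends removed. The summed level of the 9 genes was 66.3, 67.9 and 72.4 TPM in WT and 77.8, 75.2 and 77.1 TPM in LRP5-null libraries, or 68.9 ± 3.16 against 76.7 ± 1.33 TPM (SD, n = 3 each). With each library's ribosomal share in the model the median of the group was 0.07, and against WT replicate 3 alone it was 0.04, where those of all genes were 0.0059 and −0.0065.
Replication genes are known targets of E2F factors. Promoter windows of 300 bases (250 before and 50 after the start, RefSeq, GRCm38.p6) were found for 40 of the 50 genes and 27025 genes in all, and were searched on both strands for the E2F words TTTGGCGC, TTTCCCGC, TTTCGCGC and TTTGCCGC. A match was found in 6 of 8 licensing and replication genes (75%), 9 of the 40 genes (22.5%), 4.84% of the genes tested and 2.60% of all genes with a window. Mcm6 and Cdc6 are shown as examples, for the 150 bases before the start at chr1:128359706-128359855 (minus strand) and chr11:98908001-98908150 (plus strand). Capitals mark the E2F words, on either strand, and in Mcm6 also CCAAT or its complement ATTGG.
Mcm6: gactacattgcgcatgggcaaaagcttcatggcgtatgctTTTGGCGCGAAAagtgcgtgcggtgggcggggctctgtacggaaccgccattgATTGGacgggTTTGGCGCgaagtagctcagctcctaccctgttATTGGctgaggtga
Cdc6: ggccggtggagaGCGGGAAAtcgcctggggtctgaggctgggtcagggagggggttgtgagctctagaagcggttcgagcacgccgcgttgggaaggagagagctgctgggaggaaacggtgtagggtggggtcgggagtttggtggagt
In Mcm6 the E2F words begin 110, 106 and 47 bases before the start, and the first of them overlaps the next. In Cdc6 the word begins 138 bases before the start. The levels of Mcm6 overlapped between the groups and those of Cdc6 did not. Of the genes without overlap, Cdc6 included, 3 of 18 with a window had such a match (16.7%), and of those with overlap 6 of 22 (27.3%). A match describes letters in the window and is no evidence of binding.

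Of the 4 genes of nucleotide synthesis, 3 had groups without overlap (75%, against 17.4% of all genes) and 2 an unadjusted limma p under 0.05 (50%, against 14.4%), and the median log2 fold change was 0.20. Tk1, the thymidine kinase of S phase (chr11:117676840-117687406 of NCBIM37, minus strand), was 4.05, 4.37 and 4.85 TPM in WT and 6.23, 6.26 and 5.53 TPM in LRP5-null libraries. All LRP5-null libraries were above all WT libraries, with means 35.9% apart. The log2 fold change was 0.37 (SE 0.090, limma adjusted p = 0.101), and without WT replicate 3 it was 0.43 (limma adjusted p = 0.0239).
Tyms, which makes thymidylate (chr5:30384742-30400157 of NCBIM37, minus strand), was 2.39, 2.17 and 1.95 TPM in WT and 3.02, 2.70 and 2.61 TPM in LRP5-null libraries. In this gene WT replicate 3 was the library farthest from the LRP5-null values. The log2 fold change was 0.25 (SE 0.090, limma adjusted p = 0.162). Of the ribonucleotide reductase genes, Rrm2, the subunit made in S phase, had groups without overlap (18.1 to 18.8 against 19.8 to 21.5 TPM), and Rrm1 did not (9.79 to 11.7 against 9.99 to 11.1 TPM, log2 fold change −0.0091, or 0.05 with GC and length trends removed). The summed level of the 4 genes was 35.8 ± 0.81 TPM in WT and 39.8 ± 0.70 TPM in LRP5-null libraries (SD, n = 3 each), without overlap.

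The cyclins and kinases of G1 were mixed. Of 7 genes, 5 had a positive log2 fold change and 2, the partner kinases of cyclin D, had groups without overlap (28.6%, against 17.4% of all genes), with a median of 0.16. Cdk6 (chr5:3343893-3523218 of NCBIM37, plus strand) was 2.001, 2.04 and 2.17 TPM in WT and 2.75, 2.66 and 2.36 TPM in LRP5-null libraries. Its log2 fold change of 0.22 (SE 0.082, limma adjusted p = 0.169) was the only one of this group with an unadjusted p under 0.05. Cdk4 (chr10:126500590-126504976 of NCBIM37, plus strand) was 4.37, 3.57 and 4.14 TPM in WT and 4.74, 4.51 and 5.05 TPM in LRP5-null libraries (log2 fold change 0.20, SE 0.091, limma adjusted p = 0.231).
Ccnd3, by far the most abundant cyclin of this group, encodes a D cyclin of blood cells (chr17:47642000-47736632 of NCBIM37, plus strand). It was 61.9, 88.7 and 104 TPM in WT and 91.9, 93.9 and 94.5 TPM in LRP5-null libraries. The LRP5-null libraries lay close together inside the wide range of WT, and the log2 fold change was 0.17 (SE 0.170, limma adjusted p = 0.572). It was 0.33 without WT replicate 3 and −0.04 without WT replicate 1. Cdk2, with 16.1 to 23.7 TPM in WT and 17.4 to 25.1 TPM in LRP5-null libraries, and Ccne1, a cyclin that activates it, with 1.195 to 1.81 and 1.53 to 1.80 TPM, overlapped. Against WT replicate 3 alone the log2 fold change of Ccne1 turned from 0.09 to −0.08. That of Ccnd2 was −0.06. Ccne2, the other cyclin E, had a value of −0.10, which was −0.25 without WT replicate 3, 0.20 against it alone and 0.24 with GC and length trends removed. The summed level of the group overlapped between the groups of mice, from 93.1 to 137 TPM in WT and from 124.7 to 134.3 TPM in LRP5-null libraries.

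Of the regulators of cell cycle transcription, 5 were tested, 3 of them with a positive log2 fold change and 2 without overlap (40%, against 17.4% of all genes). Mybl2, a factor of the complex that switches on G2/M genes (chr2:162880423-162910424 of NCBIM37, plus strand), was 1.77, 1.24 and 1.12 TPM in WT and 1.85, 2.17 and 2.14 TPM in LRP5-null libraries. The gap between WT replicate 1 and the lowest LRP5-null library was small, while the means were 48.8% apart. Its log2 fold change was 0.37 (SE 0.119, limma adjusted p = 0.147).
Rb1, the brake on E2F factors (chr14:73583480-73725629 of NCBIM37, minus strand), was 23.3, 18.4 and 16.2 TPM in WT and 15.4, 15.7 and 16.8 TPM in LRP5-null libraries. LRP5-null replicate 3 was above WT replicate 3, so the groups overlapped, and the log2 fold change was −0.25 (SE 0.127, limma adjusted p = 0.282). Myc, a driver of proliferation in progenitors, was 0.642, 0.385 and 0.503 TPM in WT and 0.313, 0.268 and 0.594 TPM in LRP5-null libraries, too low for the test. E2f1, an activator of S phase genes, had groups without overlap (2.93 to 3.92 against 4.04 to 4.14 TPM). E2f2, the E2F of highest level here, did not (65.9 to 86.5 against 69.8 to 77.3 TPM). Foxm1, an activator of mitotic genes, was 5.26, 5.27 and 8.28 TPM in WT and 6.46, 7.42 and 7.19 TPM in LRP5-null libraries, so that WT replicate 3 was the highest library of all. Its log2 fold change was 0.17, or 0.35 without WT replicate 3 and −0.21 against it alone. The median of these genes was 0.16, but −0.02 against WT replicate 3 alone, and −0.03 over those of them averaging 5 TPM or more.

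The CDK inhibitors had a median log2 fold change of 0.12, and 0 of 4 reached an unadjusted limma p under 0.05. Cdkn1b, which encodes p27 (chr6:134870419-134875531 of NCBIM37, plus strand), was 101.3, 80.9 and 59.2 TPM in WT and 64.1, 64.4 and 61.4 TPM in LRP5-null libraries. WT replicates 1 and 2 were above, and WT replicate 3 below, every LRP5-null library. The log2 fold change was −0.31 (SE 0.173, limma adjusted p = 0.319), −0.51 without WT replicate 3 (limma adjusted p = 0.0233) and 0.09 against WT replicate 3 alone.
Cdkn2d, which encodes p19-INK4d, an inhibitor of CDK4 and CDK6, was 150.9, 171 and 182.9 TPM in WT and 181.6, 183.5 and 182 TPM in LRP5-null libraries. The LRP5-null values were almost alike and met the highest WT value (log2 fold change 0.12, SE 0.081, limma adjusted p = 0.400). Cdkn1a, the p21 gene (chr17:29227924-29237667 of NCBIM37, plus strand), was 3.02, 3.17 and 3.58 TPM in WT and 3.43, 4.04 and 4.29 TPM in LRP5-null libraries. Only LRP5-null replicate 1 lay within the range of WT, and the log2 fold change was 0.21 (SE 0.098, limma adjusted p = 0.247). Cdkn2c, which encodes the INK4 inhibitor p18, had groups without overlap (8.66 to 8.90 against 9.05 to 10.1 TPM), and a log2 fold change of 0.11 that was −0.0027 with GC and length trends removed. The summed level of the 4 inhibitors was 254.3 to 264.1 TPM in WT and 257.3 to 261 TPM in LRP5-null libraries.

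**Figure D3:**
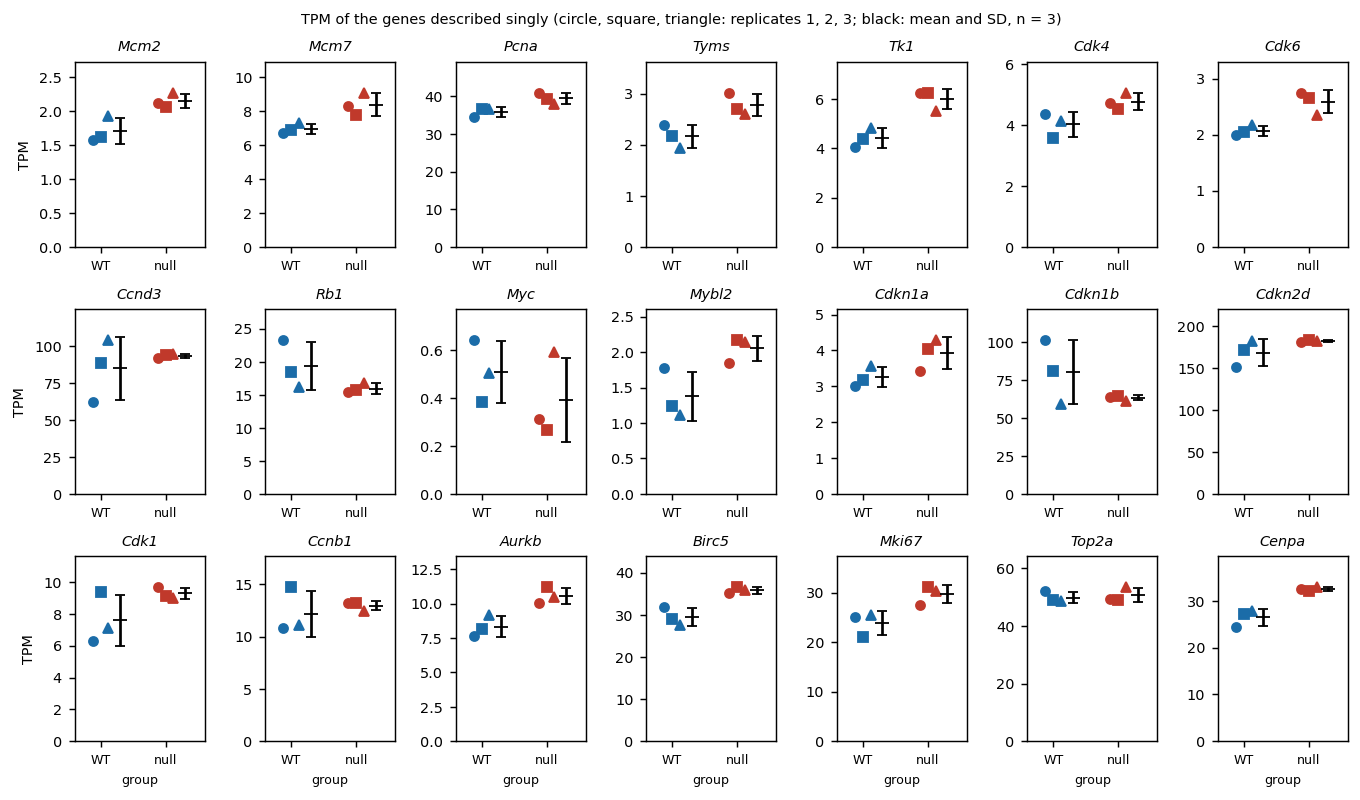
TPM per library of the 21 genes described singly (linear axes from 0), WT at the left and LRP5-null (null) at the right of each panel, with the mean and SD (n = 3) in black. Tk1, Birc5, Aurkb, Cenpa and Mki67 show no overlap, while Cdkn1b and Ccnd3 spread from 59.2 to 101.3 TPM and from 61.9 to 104 TPM in WT and stay close together in LRP5-null libraries.

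Of the 12 genes of mitotic entry and exit, 9 had a positive log2 fold change, 5 an unadjusted limma p under 0.05 (41.7%, against 14.4% of all genes) and 4 groups without overlap (33.3%, against 17.4%), with a median of 0.19. Birc5, the survivin subunit of the chromosomal passenger complex (chr11:117710565-117717069 of NCBIM37, plus strand), was 31.75, 29.0 and 27.7 TPM in WT and 35.05, 36.5 and 35.8 TPM in LRP5-null libraries. WT replicate 3 was the lowest library here, and the groups were well apart, with a log2 fold change of 0.27 (SE 0.075, limma adjusted p = 0.119).
Aurkb, the kinase of the same complex (chr11:68859149-68865166 of NCBIM37, plus strand), was 7.64, 8.13 and 9.15 TPM in WT and 10.01, 11.2 and 10.49 TPM in LRP5-null libraries. The groups did not overlap, and the log2 fold change was 0.31 (SE 0.089, limma adjusted p = 0.124), or 0.38 without WT replicate 3 (limma adjusted p = 0.0253). Cdc20, an activator of the anaphase-promoting complex, had 17.5 to 23.1 TPM in WT and 24.9 to 26.1 TPM in LRP5-null libraries, a log2 fold change of 0.32. Bub1b, a checkpoint gene whose product holds Cdc20 in check, also had groups without overlap (6.90 to 7.75 against 8.49 to 8.68 TPM).
Cdk1, the kinase that drives mitosis (chr10:68799383-68815686 of NCBIM37, minus strand), was 6.32, 9.38 and 7.09 TPM in WT and 9.68, 9.15 and 9.02 TPM in LRP5-null libraries. WT replicate 2 stood within the LRP5-null range and the other WT libraries below it (log2 fold change 0.27, SE 0.130, limma adjusted p = 0.247). Its partner Ccnb1 (chr13:101548605-101556525 of NCBIM37, minus strand) was 10.8, 14.7 and 11.1 TPM in WT and 13.2, 13.2 and 12.4 TPM in LRP5-null libraries. Again WT replicate 2 was high, here the highest of all (log2 fold change 0.09, SE 0.119, limma adjusted p = 0.665). Ccnb2, another B cyclin, Ube2c, the ubiquitin-conjugating enzyme of the anaphase-promoting complex, and Plk1, the Polo kinase, had log2 fold changes of 0.16, 0.22 and 0.20 with overlapping groups. Ccna2, the S and G2 cyclin, Aurka, the spindle pole kinase, and Bub1, a checkpoint kinase, had values of −0.02, −0.0032 and −0.10. Bub1 was at −0.18 without WT replicate 3, 0.07 against it alone and 0.06 with GC and length trends removed, and Ccna2 at −0.08, 0.09 and 0.02. The summed level of the 12 genes was 200.5, 206.3 and 215.6 TPM in WT and 232.5, 234.5 and 239.9 TPM in LRP5-null libraries, or 207.5 ± 7.57 against 235.7 ± 3.84 TPM (SD, n = 3 each). The groups did not overlap, and WT replicate 3 was the nearest WT library. With the ribosomal share as a covariate the median was 0.14, and against WT replicate 3 alone 0.11.

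**Figure D4:**
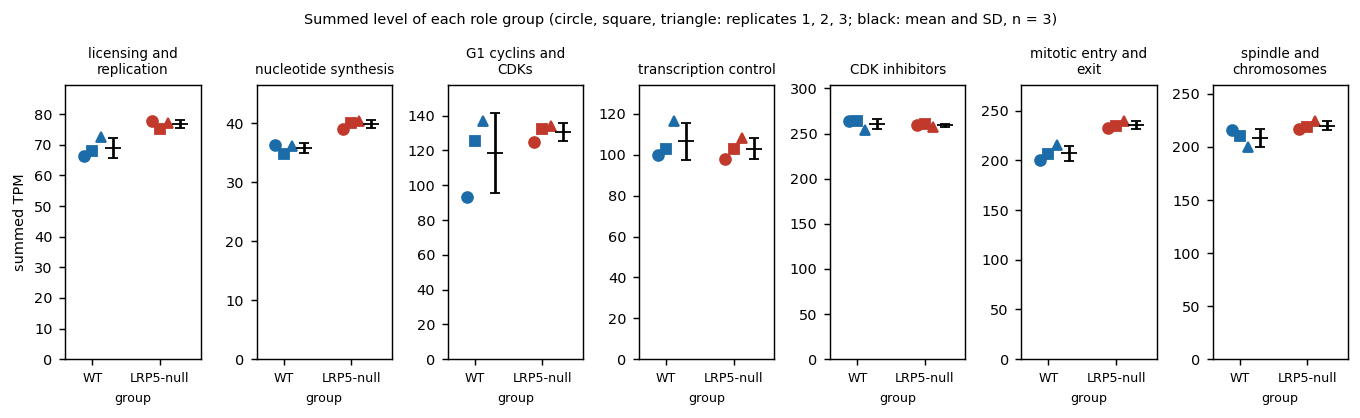
Summed TPM of the genes of each role in each library (circle, square and triangle for replicates 1, 2 and 3, axes from 0), with the mean and SD (n = 3) in black. The sums of licensing and replication, nucleotide synthesis, mitotic entry and exit, and spindle and chromosomes do not overlap between the groups. In spindle and chromosomes they nearly meet, with WT replicate 1 at 215.8 TPM and LRP5-null replicate 1 at 216.6 TPM. The sums of G1, transcription control and the CDK inhibitors overlap.

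Of the 8 genes of spindle and chromosomes, 6 had a positive log2 fold change, but the median of 0.07 was near that of all genes, and 2 had groups without overlap (25%, against 17.4%). Cenpa, the histone variant of centromeres (chr5:30969150-30977200 of NCBIM37, plus strand), was 24.5, 27.2 and 27.8 TPM in WT and 32.6, 32.0 and 32.9 TPM in LRP5-null libraries. Both groups were tight, and the log2 fold change was 0.29 (SE 0.074, limma adjusted p = 0.107), or 0.32 without WT replicate 3 (limma adjusted p = 0.0283). Mki67, the gene of the proliferation antigen Ki-67 (chr7:142881471-142908062 of NCBIM37, minus strand), was 25.1, 21.0 and 25.4 TPM in WT and 27.6, 31.1 and 30.3 TPM in LRP5-null libraries.
WT replicate 2 was the lowest of these, and the groups did not overlap (log2 fold change 0.31, SE 0.096, limma adjusted p = 0.140). Top2a, the topoisomerase that untangles chromosomes (chr11:98854257-98885503 of NCBIM37, minus strand), was 52.1, 48.9 and 48.5 TPM in WT and 49.3, 49.1 and 53.5 TPM in LRP5-null libraries. Its groups overlapped almost wholly, with a log2 fold change of 0.02 (SE 0.070, limma adjusted p = 0.870), which was −0.02 with median-ratio scaling and also −0.02 without LRP5-null replicate 3. The motor genes Kif11, for spindle poles, and Kif23, for cytokinesis, had log2 fold changes of −0.06 and 0.0041, and the kinetochore motor Cenpe, the spindle assembly factor Tpx2 and the microtubule regulator Stmn1 had 0.14, 0.11 and −0.05, all with overlapping groups. Against WT replicate 3 alone Stmn1 was at 0.28 and Kif11 at 0.03, and without it they were at −0.22 and −0.11. Mki67 and Top2a, both used as markers of dividing cells, therefore gave different values in the same libraries. The difference between them was not tested.
Many mitotic promoters hold a CHR element (cell cycle genes homology region) near the start with CCAAT boxes upstream of it. In the same windows, TTTGAA or TTCGAA on either strand was found in 8 of 10 genes of mitotic entry and exit (80%), 5 of 6 of spindle and chromosomes (83.3%), 16 of all 40 (40%), 16.8% of the genes tested and 21.7% of all genes with a window. TTCGAA is its own reverse complement and was counted once. CCAAT was found in 29 of the 40 (72.5%), against 43.1% of the genes tested and 41.1% of all genes with a window, and in each of the 16 with a CHR element. Genes of nucleotide synthesis, G1 cyclins and CDKs and CDK inhibitors had 0 CHR matches among the 13 with a window. Shown are the 150 bases before the start of Cdc20 (chr4:118437344-118437493, minus strand), whose levels did not overlap, and of Kif11 (chr19:37376232-37376381, plus strand) and Top2a (chr11:99024190-99024339, minus strand), whose levels did. Capitals mark CHR and CCAAT words on either strand.
Cdc20: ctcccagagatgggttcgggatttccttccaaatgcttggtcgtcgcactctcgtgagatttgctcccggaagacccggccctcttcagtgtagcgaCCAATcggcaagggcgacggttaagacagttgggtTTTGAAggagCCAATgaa
Kif11: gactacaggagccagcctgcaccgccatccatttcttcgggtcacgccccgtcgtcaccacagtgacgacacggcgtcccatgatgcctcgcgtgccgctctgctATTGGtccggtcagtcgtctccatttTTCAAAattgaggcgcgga
Top2a: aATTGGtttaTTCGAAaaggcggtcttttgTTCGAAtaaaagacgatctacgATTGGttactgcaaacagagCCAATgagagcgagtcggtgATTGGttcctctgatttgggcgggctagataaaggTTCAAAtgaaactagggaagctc
The CHR word nearest the start begins 18 bases before it in Cdc20, 19 in Kif11 and 23 in Top2a, with a CCAAT word 53, 45 and 58 bases before the start. Top2a holds further CHR and CCAAT words upstream, and Cdc20 a CCAAT word between the CHR word and the start. Among the cell cycle genes with a window, CHR words were found in 6 of the 18 without overlap between the groups (33.3%) and in 10 of the 22 with overlap (45.5%).

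Of 176 other cell cycle genes, listed by function, 155 were tested. None was called by limma at an adjusted p under 0.05, against 0.532% of all genes. An unadjusted limma p under 0.05 was reached by 23 genes in the higher direction (14.8%, near the 14.4% of all genes). In the lower direction it was reached by 10 (6.45%, against 9.12%). The median log2 fold change of the 155 genes was 0.04, equal to that of all genes. The groups did not overlap in 30 genes in the higher direction (19.4%, near the 17.4% of all genes) and 17 in the lower one (11.0%, near 12.3%). Set against WT replicate 3, however, all LRP5-null libraries were above it in 74 of these genes (47.7%, against 31.4% of all genes) and below it in 34 (21.9%, against 33.8%). The difference between this wider list and the 50 genes was not tested. Among other genes of mitosis, 23 of 93 were higher without overlap (24.7%) and 9 lower (9.68%), and all LRP5-null libraries were above WT replicate 3 in 55.9% and below it in 18.3%. Among other genes of replication, 2 of 31 were higher without overlap (6.45%, against 17.4% of all genes) and 2 lower (6.45%, against 12.3%). Among other genes of G1 and checkpoints, 5 of 31 were higher without overlap (16.1%) and 6 lower (19.4%).
Cks1b, which encodes a small CDK-binding protein, had the smallest p of the wider list, with 15.4, 16.3 and 16.1 TPM in WT and 21.4, 21.8 and 20.5 TPM in LRP5-null libraries. The groups were tight and far apart (log2 fold change 0.40, SE 0.069, limma adjusted p = 0.0648). Gadd45b, a stress response gene, was 32.3, 32.7 and 36.9 TPM in WT and 42.1, 45.1 and 45.7 TPM in LRP5-null libraries (log2 fold change 0.38, limma adjusted p = 0.0818). Rfc2, a subunit of the loader of the PCNA clamp, was 0.33 higher on the log2 scale (limma adjusted p = 0.150).
Stag2 and Rad21, which encode subunits of cohesin, lay in the lower direction. Stag2 was 155.5, 135.2 and 105.8 TPM in WT and 82.3, 82.7 and 86.2 TPM in LRP5-null libraries, without overlap (log2 fold change −0.64, SE 0.132, limma adjusted p = 0.0804). Rad21 was 129.7, 117.8 and 115.7 TPM in WT and 96.5, 97.6 and 102.4 TPM in LRP5-null libraries (log2 fold change −0.29, limma adjusted p = 0.102). Orc4, a subunit of the origin recognition complex, was at −0.48 on the log2 scale (limma adjusted p = 0.140). In each of these 3 genes WT replicate 3 was the WT library nearest to the LRP5-null libraries.

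The cells were neutrophils by their markers, with Ly6g at 920 to 1104 TPM and S100a8 at 106900 to 151300 TPM. The 8 granule and regulator genes listed for neutrophil precursors, the stage in which the cell cycle genes are used, lay in the same direction. All 8 had a positive log2 fold change (100%, against 58.8% of all genes), with a median of 0.32, and 6 had groups without overlap (75%, against 17.4%), though none was called by limma. Their summed level was 433, 472.8 and 463.6 TPM in WT and 545.6, 532.5 and 525.8 TPM in LRP5-null libraries. The azurophil granule genes of the earliest of these stages were low, with Elane at 3.18 to 4.94 TPM and Mpo at 3.75 to 5.76 TPM. Cebpe, of the myelocyte stage, was at 268 to 357 TPM. Genes of specific granules, not among the 8, went both ways. Their log2 fold changes were 0.35 (Camp), 0.09 (Ltf), 0.07 (Lcn2), −0.14 (Ngp) and −0.41 (Mmp8, also listed as mature). Of 10 genes listed for mature neutrophils, 9 had a negative log2 fold change (median −0.16) and 1 a positive one (10%, against 58.8% of all genes). The summed level of the 10 was 37320 to 41150 TPM in WT and 35840 to 37140 TPM in LRP5-null libraries. It was mostly Retnlg, with a log2 fold change of −0.02. The part of maturation stage in the cell cycle values was not tested.
Markers of other marrow cells were compared as well. Of 15 erythroid genes, 4 reached 1 TPM, with summed levels of 47.5 to 56.6 TPM in WT and 41.96 to 52.2 TPM in LRP5-null libraries, mostly the globin gene Hbb-bs, and Klf1 and Epor were near 0, at most 0.13 TPM in any library. B lineage genes (5 of 14 at 1 TPM) summed to 14.6 to 16.7 TPM in WT and 14.9 to 15.9 TPM in LRP5-null libraries. Stem and progenitor genes (2 of 8) summed to 8.11 to 9.08 and 8.88 to 10.25 TPM, mostly Kit. Kit alone was 5.87 to 7.29 TPM in WT and 7.30 to 8.21 TPM in LRP5-null libraries, narrowly without overlap. Its log2 fold change was 0.25 (limma adjusted p = 0.181), and that of Hlf, the other gene tested, was −0.10. Monocyte and dendritic genes (7 of 11) summed to 825 to 982 and 896 to 965 TPM, mostly Ly6c2 and Mpeg1.
The sums of 3 lists did not overlap and were higher in LRP5-null libraries, in the T and NK list through 1 gene. These were T and NK cells (2 of 10 genes at 1 TPM, 12 to 13.9 against 16.1 to 17.8 TPM, mostly Cd3d, while Cd3e, Cd3g, Cd8a, Lck, Klrb1c and Gzma, all below 1 TPM, had lower means in LRP5-null libraries), megakaryocytes (2 of 6, 3.75 to 5.41 against 5.78 to 6.66 TPM) and eosinophils and basophils (3 of 8, 10.7 to 13.3 against 13.7 to 15 TPM). Most of the last sum was Siglecf, with a log2 fold change of 0.03. In that list Prg2 was called by limma (log2 fold change 0.91, adjusted p = 0.0341). Epx, at most 0.14 TPM, and Prg3 and Cpa3, also below 1 TPM, had higher means in LRP5-null libraries. Mcpt8, Ear6 and Fcer1a had lower means there. The part of these cells in the cell cycle values was not tested.

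The direction of the whole group held under other ways of processing. The median log2 fold change of the 50 genes, as far as tested, was 0.19 without WT replicate 3, 0.12 with the ribosomal share in the model, 0.098 against WT replicate 3 alone and 0.11 after removal of each library's trends with GC content and length. Medians of mitotic entry and exit and of nucleotide synthesis stayed above that of all genes in these settings. Those of transcription control and of the CDK inhibitors did not stay above 0 in each of them. For the inhibitors this was with the trends removed, where Cdkn2d was missing for lack of a GC value.

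**Figure D5:**
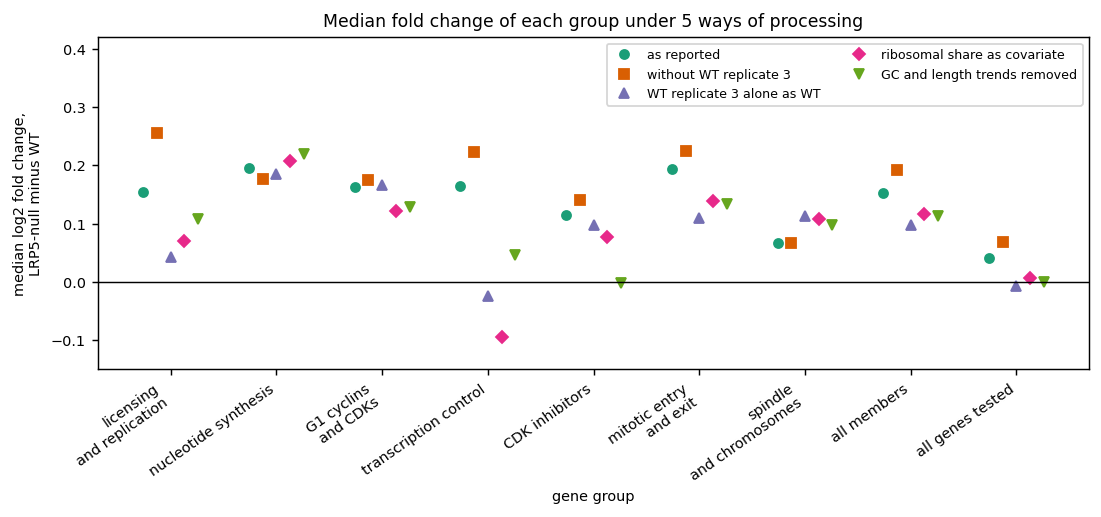
Median log2 fold change, LRP5-null minus WT, of each role group, of all cell cycle genes tested and of all genes tested, under 5 ways of processing (symbols). The median of all 50 genes, as far as tested, stays between 0.098 and 0.19, while transcription control lies at −0.02 against WT replicate 3 alone and at −0.10 with the ribosomal share as a covariate.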

How the data were processed

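RNA was sequenced in 3 WT and 3 LRP5-null libraries. The authors deposited TPM per gene, with length and library total taken out. TPM keeps no depth, so counting error per gene is unknown. The deposited read summary gives counts of reads and percent of reads per class. The processing notes name mm9 and DESeq2, and the tool that gave TPM is not given in the sources used here.
Genes averaging 1 TPM or more were tested with limma 3.58.1 (R 4.3.3) on log2(TPM + 1), a scale that shrinks fold changes at low levels, with a trend and Benjamini-Hochberg adjustment over all 9775 genes. TPM holds no counts, so no count model was used. The members, role groups and lists were chosen with earlier results of these data known. Genes described per library were those with the 2 smallest p in each role group, together with Mki67, Top2a, Cdk1, Ccnb1, Pcna, Mcm2, Ccnd3, Cdkn1a, Cdkn2d and Myc, and from the other cell cycle genes the 2 smallest p per list. Other genes with values were picked after these were seen. Alternatives were a pseudocount of 0.1, no filter or 5 TPM, other scalings (median ratio, quantile, TPM rescaled without mitochondrial and the 20 most abundant genes), limma without trend or robust, a replicate block, each library left out, the ribosomal share as a covariate, WT replicate 3 alone as WT (assumed to vary like the other group) and removal of GC and length trends, for which 89.7% of genes had a value in GENCODE M1 (NCBIM37). Coordinates of genes are of NCBIM37 and those of promoters of GRCm38.p6. The fit was tested on simulated data. The study's lipid and metabolite data were not used here.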

Additional observations from a re-analysis of the deposited data

How the results depend on the processing

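The number of cell cycle genes called was 0 in each setting but 1, and ranged from 0 to 7 with each library left out (7 without WT replicate 3). Calls over all genes (52, of which 50% were higher) ranged from 2 to 1920 with a library left out (1920 without WT replicate 3). They were 3 without a filter, 29 at 5 TPM, 99 after rescaling (72 higher), 4 with the replicate block, 6 with the ribosomal covariate, 6 against WT replicate 3 alone and 425 after removal of GC and length trends (157 higher). The cause was not tested. The replicate block called 0 of the cell cycle genes. Deviations of same-numbered libraries from their group means correlated at 0.23, −0.0075 and 0.13. WT replicates 1 and 3 correlated best with the LRP5-null library of the same number, and WT replicate 2 with LRP5-null replicate 3 (0.02). These values do not settle whether the replicate numbers pair the libraries.
The member median of 0.15 was 0.12 with median-ratio scaling, 0.11 with quantile normalization, 0.19 after rescaling, 0.12 with the covariate, 0.098 against WT replicate 3, 0.11 with the trends removed and 0.11 to 0.19 with a library left out. The median of all genes was 0.0032, 0.0022 and 0.08 in these 3 scalings, so the members' excess over it barely moved.
Nucleotide synthesis moved to 0.24 at a pseudocount of 0.1, 0.14 at 5 TPM, 0.16 with median-ratio scaling, 0.14 with quantile normalization and 0.24 after rescaling. G1 moved to 0.12, 0.12 and 0.19 in the 3 scalings, 0.12 with the covariate, 0.13 with the trends removed and 0.035 to 0.18 with a library left out (0.035 without WT replicate 1). Transcription control was −0.032 at 5 TPM, −0.096 with the covariate, −0.025 against WT replicate 3, 0.045 with the trends removed and 0.061 to 0.22 with a library left out (0.061 without WT replicate 1 and 0.072 without WT replicate 2). The inhibitors were at 0.073 with median-ratio scaling, 0.077 with the covariate and −0.0027 with the trends removed. The last of these medians lacks Cdkn2d, which had no GC value. Licensing and replication was 0.070 with the covariate, 0.043 against WT replicate 3 and 0.13 to 0.26 with a library left out (0.26 without WT replicate 3). Mitotic entry and exit was 0.14 with the covariate, 0.11 against WT replicate 3 and 0.13 with the trends removed.
Top2a was −0.021 with median-ratio scaling and ranged from −0.017 to 0.054 with a library left out. Ccnd3 was −0.058 with the covariate, −0.15 against WT replicate 3 and −0.040 to 0.33 with a library left out. Against WT replicate 3, Cdkn1b was 0.095 and Cdkn2d −0.0043. Of the other values of genes described singly, 342 kept their direction and their side of the threshold and 4 were called, all without WT replicate 3. TPM keeps no depth, so what depth limits cannot be given.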
